A study of Mus musculus with 4 samples.

Results

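Carbonic anhydrases are zinc enzymes that interconvert carbon dioxide and water with bicarbonate and a proton. In liver they work in the cytosol, in mitochondria and at the cell surface, and are known for supplying bicarbonate to urea and glucose synthesis and for handling acid. The 6 genes described here are Car1, Car2 and Car3 of the cytosol, Car5a of mitochondria, Car14 of the plasma membrane, and Car8, a relative that lacks the enzymatic activity. They were picked by symbol, with the difference between the groups already known, out of 16 carbonic anhydrase symbols in a table of 24421 gene symbols. That difference is therefore given below as a description. Limma calls among these genes are counted only beside the share of all tested genes, and nothing is read from them.

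RNA was measured in livers of mice after hepatectomy. The control group (2 libraries) received fibrin gel alone, and the gelADSC group (2 libraries) received the same gel holding ADSC (adipose-derived stem cells). Hepatectomy and the gel were common to both groups, so the comparison asks how the liver differed when the gel carried cells. The sources used here do not state strain, age, the time after surgery, the source of the ADSC or whether the 2 libraries of a group are separate animals. Libraries are called by the numbers in the column names, 1 and 3 for control and 2 and 3 for gelADSC. Values are FPKM, fragments scaled by gene length and library depth, and are not counts.

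The 4 libraries held roughly 18100000 to 24400000 reads, as read from the smallest steps of the values. The liver label was checked against 10 hepatocyte markers, all of them above the filter, with Alb between 22023 and 38330 FPKM and Hnf4a between 157 and 197 FPKM. Of these 10, 0 were called by limma, where 6.92% of all tested genes were called higher and 17.5% lower. Of the same 10, 4 had an unadjusted p under 0.05, and 2 were called by limma without a trend. All 4 libraries held Y-linked transcripts, with Ddx3y between 13.2 and 14.1 FPKM, and Xist did not pass 0.006 FPKM. In bulk tissue, fewer cells of a type and less RNA per cell cannot be told apart.

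Among the 6 genes RefSeq promoter windows were matched for Car5a and Car14. The 250 bases before each start site are shown because both genes were higher in both gelADSC libraries than in either control. Both are given 5′ to 3′ on the minus strand of GRCm38.p6, at chr8:121944913-121945162 for Car5a and chr3:95904686-95904935 for Car14, and capitals mark a motif match.
Car5a: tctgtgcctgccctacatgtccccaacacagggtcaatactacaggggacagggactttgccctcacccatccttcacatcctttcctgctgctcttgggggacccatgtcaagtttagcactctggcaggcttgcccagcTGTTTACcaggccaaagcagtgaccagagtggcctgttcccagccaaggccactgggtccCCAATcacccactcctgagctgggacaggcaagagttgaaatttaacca
Car14: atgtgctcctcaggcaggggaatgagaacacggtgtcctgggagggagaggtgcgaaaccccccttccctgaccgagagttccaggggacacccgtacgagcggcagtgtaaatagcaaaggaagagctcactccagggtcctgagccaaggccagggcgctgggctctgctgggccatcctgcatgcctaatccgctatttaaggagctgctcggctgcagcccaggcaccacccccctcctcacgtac
The motifs were picked after the sequences were seen and searched on both strands, and no matches overlapped. They were TATAAA (the core of the TATA box), CCAAT (bound by nuclear factor Y), GGGCGG (the GC box), CACGTG (the E-box) and TGTTTAC (a forkhead motif). The Car5a window held TGTTTAC starting 109 bases before the start site, and CCAAT starting 49 bases before it. Over 32851 promoter windows of the same length, 3.17% held TGTTTAC and 33.8% held CCAAT. The Car14 window held no match to these 5 motifs. Its GC content was 62.0%, against 56.0% for Car5a and a median of 52.4% over all windows. A match describes letters and is not evidence that a factor binds there.

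All 6 genes were higher in both gelADSC libraries than in either control library. The ratio of group means ran from 2.15 for Car14 and 2.47 for Car8 to 114 for Car3. Of the 6 genes 5 passed the filter of a mean of at least 1 FPKM, and Car1 did not. Of those 5, 4 were called higher by limma (Car2, Car3, Car5a and Car8) and 0 lower, where 6.92% of 11070 tested genes were called higher and 17.5% lower. The groups did not overlap, with gelADSC higher, for all 5, as for 19.2% of tested genes. Since the genes were picked on this contrast, nothing is read from these counts. The median log2 change of the 5 was 1.26, against -0.25 for all tested genes. That shift of all genes depends on the scaling. The table as deposited gave 766 higher and 1936 lower calls, median ratio scaling gave 952 and 932, and quantile normalization gave 929 and 999. The number of carbonic anhydrases called higher was 4 under both scalings. Car2 was not called when either control library was left out or with no filter. Car14 was called only in fits that left 1 library in a group, whose spread is then assumed, and nothing is read from those calls.

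**Figure D1:**
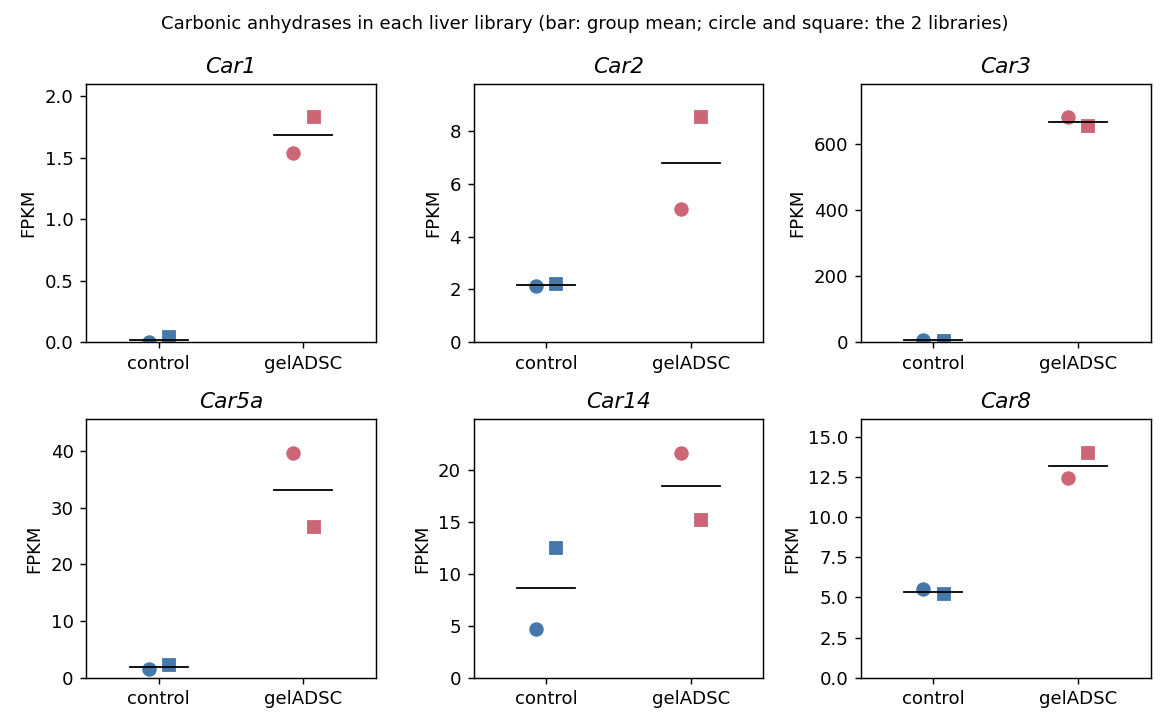
FPKM of each carbonic anhydrase in the 4 liver libraries. Circles and squares are the 2 libraries of a group, bars are group means, each panel has its own axis from 0, and in every panel both gelADSC points lie above both control points.

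Car3 is a cytosolic isoform with low carbon dioxide hydration activity that is abundant in muscle, adipose tissue and, in rodents, in liver, where its level is known to depend on sex. It read 8.07 and 3.58 FPKM in control libraries 1 and 3 and 680 and 654 FPKM in gelADSC libraries 2 and 3. The gelADSC libraries were near each other, while control library 1 read more than control library 3. The mean was 5.82 ± 3.18 FPKM in control and 667 ± 18.1 FPKM in gelADSC (SD, n = 2 each), a ratio of 114. The ratio was 81.0 between the closest libraries of the groups and 190 between the farthest. Its log2 change of 6.70 (SE 0.30) ranked 1 among 11070 tested genes. By level Car3 went from rank 5961 and 7807 in the control libraries to rank 98 and 91 in the gelADSC libraries among all symbols. The values corresponded to 246 and 99 reads in control and 25353 and 20146 reads in gelADSC.

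Car3 dominated the family in gelADSC. The 16 carbonic anhydrase genes together summed to 25.0 and 28.9 FPKM in control and to 763 and 723 FPKM in gelADSC. Car3 made up 32.3% and 12.4% of that sum in the controls and 89.1% and 90.4% in gelADSC. Car14 held 18.6% in control library 1, below Car3 and Car8, and the largest share in control library 3, 43.3%. In gelADSC the share of Car14 was 2.1% to 2.84%.

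Car3 is also a transcript of fat and muscle cells, so markers of both were read beside it. Of 12 adipocyte markers 7 were tested, 1 rose and 3 fell, where 6.92% of all tested genes were called higher and 17.5% lower. Adipoq, the adipocyte hormone adiponectin, read 0.652 FPKM in control library 1, 0.765 FPKM in gelADSC library 2 and was listed at 0 in control library 3 and gelADSC library 3. Plin1, the lipid droplet coat protein of adipocytes, was listed at 0 in the same pair and did not pass 0.288 FPKM. The part of fat cells in the difference of Car3 was not tested. The summed level of the 12 markers was 134 and 75.0 FPKM in control and 54.3 and 27.1 FPKM in gelADSC, and Fabp4, with 98.0 and 52.4 FPKM in control and 38.6 and 12.5 FPKM in gelADSC, is a fatty acid binding protein also made by endothelium and macrophages. Plin4, another droplet coat protein, and Fabp4 fell, with log2 changes of -2.38 and -1.66 (limma adjusted p = 0.000999 and 0.0362). The call of Fabp4 was lost in 5 of 10 alternatives, among them without control library 1 (adjusted p = 0.311) and without control library 3 (0.0835). The marker that rose was Adrb3, an adrenergic receptor, from 0.287 and 0.316 to 2.51 and 3.04 FPKM, named after its value was seen. Of 16 skeletal muscle markers 5 were at 0 in all libraries and 1, Tnnc1, was tested and not called. The muscle sum was 2.11 and 1.66 FPKM in control and 4.91 and 3.08 FPKM in gelADSC, and Acta1 and Ckm did not pass 0.035 FPKM.

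**Figure D2:**
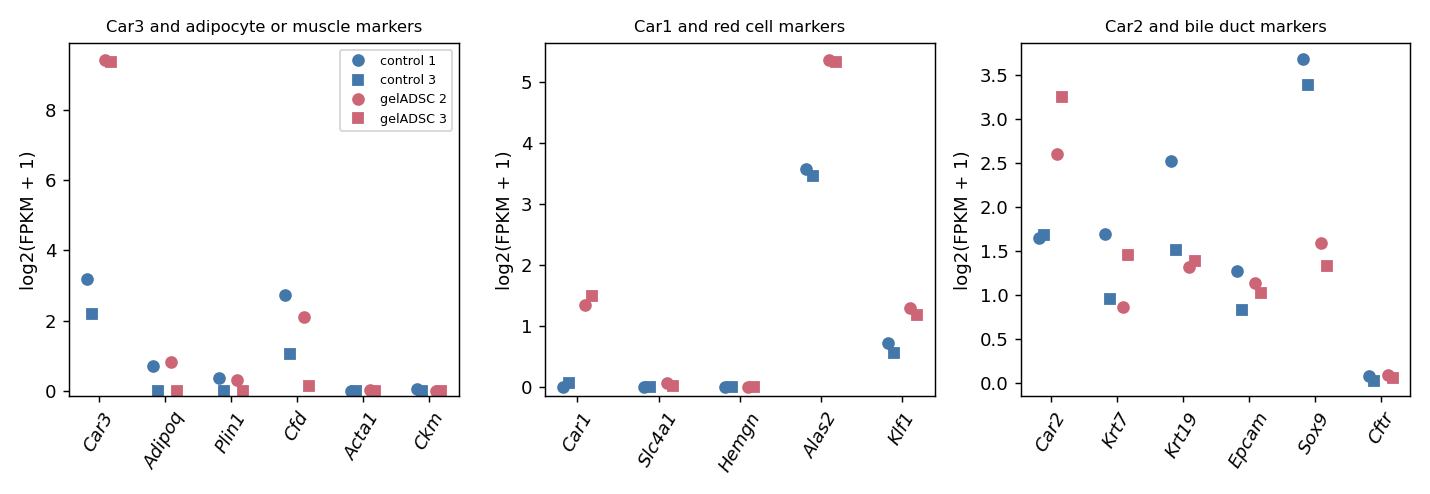
Level as log2(FPKM + 1) of Car3, Car1 and Car2 beside markers of other cells that carry them, in 4 libraries (blue control, red gelADSC). Car3, Car1 and Car2 are higher in both gelADSC libraries than in either control. Adipoq is at most 0.765 FPKM and Plin1 at most 0.288 FPKM. Alas2 and Klf1 are higher in gelADSC. Sox9 and Krt19, the latter not called, are lower, and the groups overlap for Krt7, Epcam and Cftr. The markers are a choice from longer lists, and the called adipocyte markers Plin4, Fabp4 and Cidea (lower) and Adrb3 (higher) are not shown.

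Car1 and Car2 are the classic cytosolic isoforms of red blood cells, and Car2 is also made by bile duct cells. Car1 was listed at 0 in control library 1 and read 0.0443 FPKM in control library 3, against 1.54 and 1.83 FPKM in gelADSC libraries 2 and 3. These values corresponded to 0 and 1 read in control and to 47 and 46 reads in gelADSC. The ratio of reads per depth was 79.4, with a 95% exact (Clopper-Pearson) interval of 13.9 to 3170 that covers counting error only. Car1 was thus near the limit of detection in control and low in gelADSC.

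Car2 read 2.13 and 2.22 FPKM in control libraries 1 and 3 and 5.06 and 8.51 FPKM in gelADSC libraries 2 and 3. The controls were close together, while only 7.52% of tested genes differed more between the gelADSC libraries. The mean was 2.18 ± 0.0643 FPKM in control and 6.79 ± 2.44 FPKM in gelADSC (SD, n = 2 each), with a log2 change of 1.26 (SE 0.26).

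Markers of red blood cells gave little to compare with. Of 17 such genes with values, 8 were at 0 in all 4 libraries, including 6 globin genes. Globins are the most abundant transcripts of blood, so a 0 there can be a failed estimate, and blood content cannot be read from them. Slc4a1, the anion exchanger of the red cell membrane, did not pass 0.054 FPKM, and Hemgn was at 0. Alas2, the erythroid enzyme of heme synthesis, was the 1 marker tested and rose from 10.5 ± 0.681 to 39.5 ± 0.862 FPKM (SD, n = 2 each, log2 change 1.82, limma adjusted p = 0.000531). For the counts that follow, 6.92% of all tested genes were called higher and 17.5% lower. Of 12 bile duct markers 7 were tested, 3 fell and 0 rose. Their sum was 202 and 325 FPKM in control and 65.4 and 57.8 FPKM in gelADSC. Cldn4, a tight junction protein, and Spp1, osteopontin, fell with log2 changes of -3.28 and -2.12 (limma adjusted p = 0.00466 and 0.00245), calls lost with no filter for Cldn4 (0.062) and with median ratio scaling for Spp1 (0.0553). Krt19 read 4.75 and 1.85 FPKM in control and 1.49 and 1.63 FPKM in gelADSC. Of 8 leukocyte markers 0 rose and 1, Cd68, fell with a log2 change of -2.42. Of 10 stromal markers 9 were tested, of which Lum rose (1.54) and Nt5e fell (-1.30). The call of Lum was lost with no filter (adjusted p = 0.0605), and that of Nt5e in 4 of 10 alternatives, among them without control library 1 (adjusted p = 0.174). The part of these cells in the differences of Car1 and Car2 was not tested.

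Car1, Car2 and Car3 lie side by side with Car13 in the RefSeq order of genes, as Car13, Car1, Car3 and Car2, with no other protein-coding gene between them. The neighbours did not share 1 level or 1 direction. Car13, a cytosolic isoform, read 1.11 and 1.06 FPKM in control and 0.695 and 0.540 FPKM in gelADSC, lower without overlap, as for 50.5% of tested genes, and did not pass the filter. E2f5, a cell cycle transcription factor on the Car13 side, read 3.70 and 3.22 FPKM in control and 2.72 and 3.32 FPKM in gelADSC (limma adjusted p = 0.629). Along this stretch the log2 change was -0.37 for Car13, 1.39 for Car1, 6.70 for Car3 and 1.26 for Car2. A long noncoding RNA, Gm41999, stands between Car1 and Car3 in the same order. Whether it overlaps Car3 is not shown by that order. The libraries were stranded, but no counting step that uses strand is given. How reads in any overlap were assigned is therefore not known.

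Car5a is the mitochondrial isoform of hepatocytes and supplies bicarbonate to carbamoyl phosphate synthetase of the urea cycle and to pyruvate carboxylase of glucose synthesis. It read 1.45 and 2.22 FPKM in control libraries 1 and 3 and 39.7 and 26.6 FPKM in gelADSC libraries 2 and 3. The closest libraries of the groups differed by a ratio of 12.0, and gelADSC library 2 was the higher. The mean was 1.83 ± 0.542 FPKM in control and 33.1 ± 9.25 FPKM in gelADSC (SD, n = 2 each), a ratio of 18.1 and a log2 change of 3.58 (SE 0.25), rank 29 among tested genes. Reads were 36 and 50 in control and 1205 and 667 in gelADSC. Car5b, the other mitochondrial isoform, read 0.844 and 0.705 FPKM in control and 0.606 and 0.921 FPKM in gelADSC, and the groups overlapped.

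The log2 changes of enzymes that use bicarbonate lay between -0.10 and 1.04, and their difference from Car5a was not tested. Of 8 tested, 3 rose and 0 fell, where 6.92% of all tested genes were called higher and 17.5% lower. Their median log2 change was 0.66, against -0.25 for all tested genes. Pcca, a subunit of propionyl-CoA carboxylase, read 9.41 and 14.2 FPKM in control and 23.1 and 26.5 FPKM in gelADSC (log2 change 1.04, SE 0.23, limma adjusted p = 0.0151). Mccc2 and Mccc1, both subunits of methylcrotonyl-CoA carboxylase, rose with log2 changes of 0.96 and 0.88 (limma adjusted p = 0.0115 and 0.0159), Mccc1 being named after its value was seen. Leaving out control library 1 ended these 3 calls (adjusted p = 0.105, 0.0865 and 0.103), and leaving out gelADSC library 2 that of Mccc1 (0.09). With no filter Pcca and Mccc1 were not called (0.0645 and 0.0528). Cps1, the carbamoyl phosphate synthetase, read 213 and 443 FPKM in control and 682 and 491 FPKM in gelADSC (log2 change 0.91, SE 0.34, limma adjusted p = 0.0847). Its log2 change was 0.38 without control library 1 and 1.43 without control library 3 (adjusted p = 0.0365), and it was also called without gelADSC library 3 (adjusted p = 0.00243). Pcx, pyruvate carboxylase, read 114 and 131 FPKM in control and 161 and 171 FPKM in gelADSC (log2 change 0.44, SE 0.19, limma adjusted p = 0.124). Acaca and Acacb, the acetyl-CoA carboxylases of fatty acid metabolism, had log2 changes of -0.10 and -0.07 and overlapping groups.

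**Figure D3:**
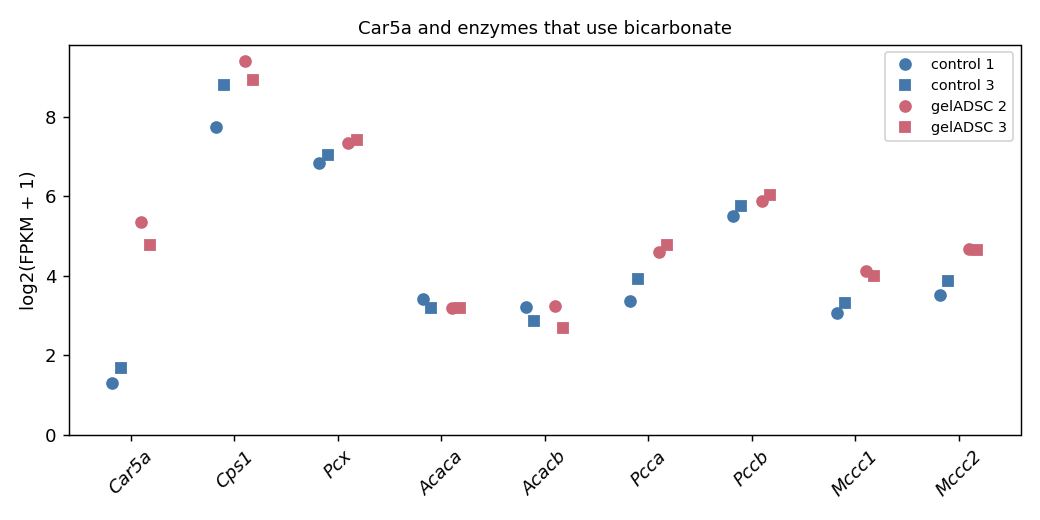
Level as log2(FPKM + 1) of Car5a and 8 bicarbonate-using enzymes in the 4 libraries (blue control, red gelADSC). Car5a has the widest gap between groups, with a log2 change of 3.58, while Acaca and Acacb overlap.

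Of 17 bicarbonate and proton transporters 8 were tested, 1 rose and 1 fell, where 6.92% of all tested genes were called higher and 17.5% lower. Their median log2 change was -0.25, as for all tested genes. Slc26a1, an anion exchanger that carries sulfate, oxalate and bicarbonate, rose from 7.997 and 18.2 to 72.5 and 45.1 FPKM (log2 change 2.15, SE 0.36, limma adjusted p = 0.0047). Its adjusted p was 0.0646 without control library 1 and 0.056 with no filter. Slc16a7, a monocarboxylate and proton carrier, fell from 34.2 and 48.4 to 21.0 and 20.8 FPKM (log2 change -0.93, SE 0.22, limma adjusted p = 0.0177). Its adjusted p was 0.145 after quantile normalization, 0.151 after median ratio scaling, 0.0624 with no filter and 0.0613 without control library 3.

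Car14 is a transmembrane isoform whose active site faces outward and that is found on hepatocytes. It read 4.66 and 12.5 FPKM in control libraries 1 and 3 and 21.6 and 15.2 FPKM in gelADSC libraries 2 and 3. Only 0.885% of tested genes differed more between the control libraries, and control library 3 came near gelADSC library 3. The mean was 8.58 ± 5.55 FPKM in control and 18.4 ± 4.55 FPKM in gelADSC (SD, n = 2 each), with a log2 change of 1.13 (SE 0.38). Its log2 change was 0.50 without control library 1 and 1.76 without control library 3. It was 0.89 without gelADSC library 2 and 1.37 without gelADSC library 3, so its size moved most with the control libraries.

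Car8 keeps the carbonic anhydrase fold but not the activity, and binds the inositol trisphosphate receptor. It read 5.49 and 5.19 FPKM in control libraries 1 and 3 and 12.4 and 14.0 FPKM in gelADSC libraries 2 and 3. Both groups were tight, with 5.34 ± 0.210 FPKM in control and 13.2 ± 1.13 FPKM in gelADSC (SD, n = 2 each). The log2 change was 1.16 (SE 0.19), near that of Car14 and Car2.

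The order of levels also changed. In control the means ran Car14, Car3, Car8, Car2, Car5a and Car1, and the ranges of neighbours overlapped except between Car8 and Car2 and between Car5a and Car1. In gelADSC the means ran Car3, Car5a, Car14, Car8, Car2 and Car1, and no neighbouring ranges overlapped. Car5a thus went from the fifth place to the second.

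The 10 other carbonic anhydrases all had means under 1 FPKM, so 0 were tested. With no filter, 1 of the 10 was called higher and 1 lower, where 525 of all 17563 genes fitted were called higher and 730 lower. Car15, a membrane-anchored isoform, read 0.0908 and 0.250 FPKM in control and 0.705 and 0.629 FPKM in gelADSC (limma adjusted p = 0.0484), which corresponded to 2 and 5 reads against 19 and 14. Car4, an isoform anchored on the outer face of endothelial and epithelial cells, read 0.502 and 0.340 FPKM in control, was listed at 0 in gelADSC library 2 and read 0.0382 FPKM in gelADSC library 3 (limma adjusted p = 0.0341). The reads of Car4 were 13 and 8 in control and 0 and 1 in gelADSC. Car9 and Car12, the isoforms known from hypoxic and secretory epithelia, did not pass 0.481 and 0.0405 FPKM, and Car6, Car7, Car10 and Car11 did not pass 0.495 FPKM.

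**Figure D4:**
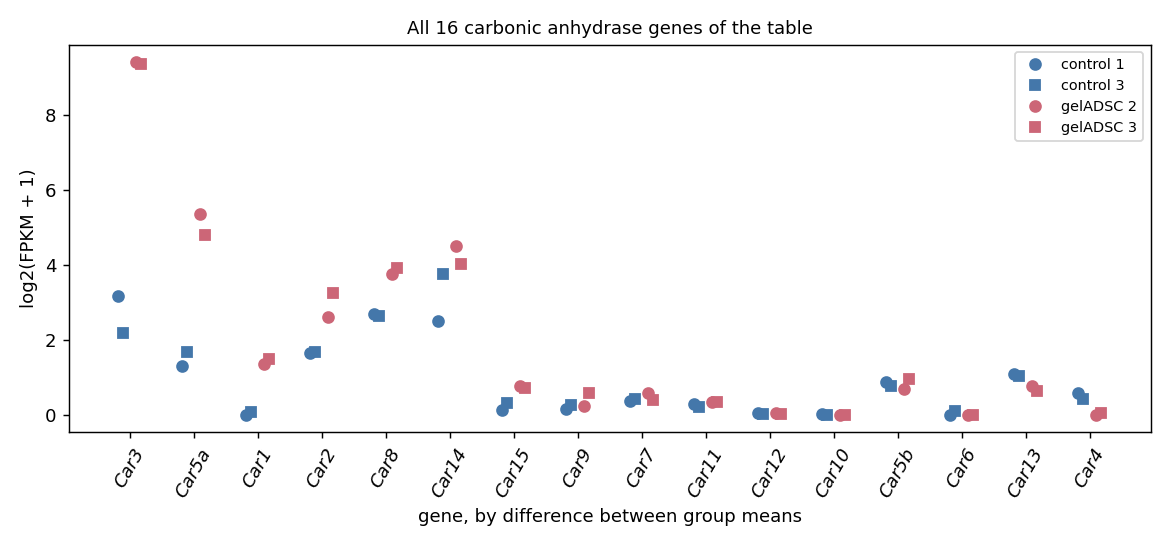
Level as log2(FPKM + 1) of all 16 carbonic anhydrase genes in the 4 libraries, ordered by the difference between group means (circles and squares are the 2 libraries of a group). The 6 described genes stand at the left, from Car3 to Car14, and of the 10 others Car13 reads highest, at 1.11 FPKM in control library 1.

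The genes most like each carbonic anhydrase were taken as those with the smallest Euclidean distance over the 4 libraries, in log2 units after removing each gene's mean. Nearest to Car3 were Cyp2c54, a cytochrome P450, at 0.61, Inmt, a methyltransferase, at 0.80 and Serpina6, corticosteroid-binding globulin, at 0.86, and only these 3 tested genes lay within a distance of 1. Cyp2c54, which has close copies, read 1.78 and 0.966 FPKM in control and 163 and 185 FPKM in gelADSC. Nearest to Car5a were Gamt of creatine synthesis, Prodh2 of hydroxyproline breakdown and Aldh1b1, a mitochondrial aldehyde dehydrogenase, at 0.29 to 0.36, with 41 genes within 1. Gamt read 7.55 and 12.1 FPKM in control and 161 and 127 FPKM in gelADSC. Nearest to Car14 were Hist1h2bg, Inhbc and Cps1, at 0.20 to 0.27, and these shared its low value in control library 1. For Car14, Car2 and Car8 the likeness is unspecific, with 448, 1203 and 1911 genes within a distance of 1. Nearest to Car2 were Arid5b, Lrit1 and Spata22, and nearest to Car8 were Dtl, Slc16a10 and Mgat5.

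**Figure D5:**
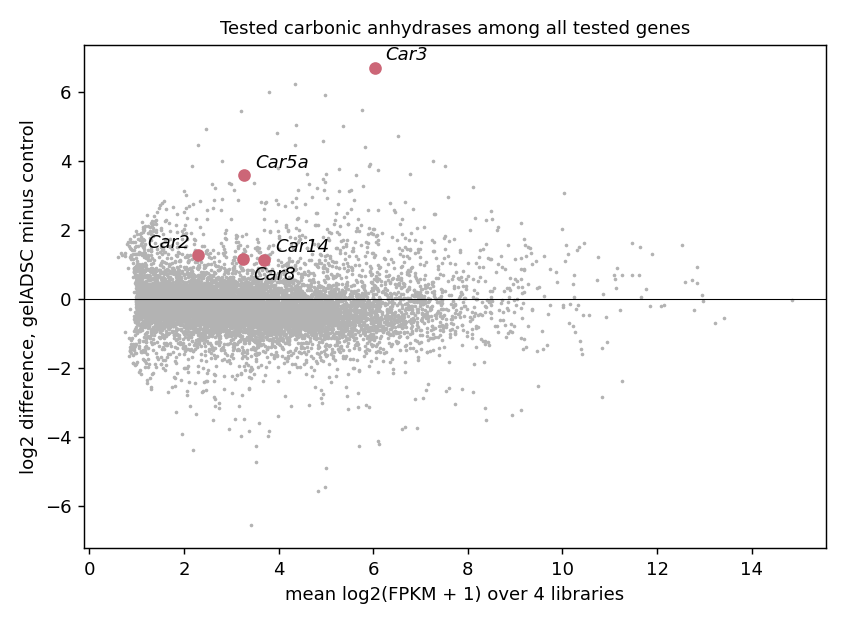
Log2 difference, gelADSC minus control, against mean log2(FPKM + 1) for the 11070 tested genes (grey), with the 5 tested carbonic anhydrases in red. Car3 is the highest point of the plot at 6.70, and Car2, Car8 and Car14 lie between 1.13 and 1.26.

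Zone markers of the liver lobule give the setting of these differences. Of 12 central vein hepatocyte markers 9 rose and 1 fell, with a median log2 change of 2.02. Of 9 tested portal vein markers 3 rose and 2 fell, with a median of 0.28. Over all tested genes 6.92% were called higher and 17.5% lower, with a median of -0.25. Rgn and Cyp1a2 near the central vein rose with log2 changes of 4.0 and 3.12, and near the portal vein Cyp2f2 rose with 3.60 while Sdsl fell with -1.61. The change of Car3 was larger than that of any of these markers. The change of Car5a, 3.58, lay between those of Cyp1a2 and Rgn near the central vein, and was nearest to that of Cyp2f2 near the portal vein.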

How the data were processed

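Liver RNA of 4 mouse samples was purified on RNeasy columns and sequenced from TruSeq Stranded mRNA libraries, per the labels' protocols. The deposited table names no unit, and its values were taken as FPKM made by the authors, because Cufflinks 2.2.1 stands beside Trimmomatic 0.38 and TopHat2 2.1.1 in the submitters' processing notes. They list hg19, a human build that has no mouse symbols, so gene coordinates are not given outside the promoter windows. Column numbers do not match the sample titles, so columns were assigned to groups only.

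From the FPKM, log2(FPKM + 1) was tested with limma 3.58.1 (R 4.3.3, mean-variance trend, two-sided, Benjamini-Hochberg over 11070 genes with a mean of at least 1, threshold 0.05). The fit was also run on simulated data whose added changes were larger than those of Car2, Car8 and Car14. That run does not show how changes of their size are called. Fold changes on this scale understate the change of low genes. Since 1 read has a fixed value per gene, the smallest whole read numbers that gave the 4 values within 0.001 were sought. They were found for all 16 carbonic anhydrases and for 92.3% of 222 other genes tried. Car6 and Car10 were above 0 in only 1 library each, where 1 read always fits and does not show the read number. No count test was run. Where samples are not separate animals, p-values measure technical spread only. The genes, lists and rules were chosen with earlier results of these data known. By rule, the named genes were the 6, the other carbonic anhydrases and the 3 nearest genes of each tested member. From each list they were the 2 called genes with the largest change, or the 2 most abundant. Other genes were named outside this rule. They were Hnf4a, Xist, Adipoq, Plin1, Cidea, Adrb3, Acta1, Ckm, Slc4a1, Hemgn, Klf1, Krt19, Sox9, Mccc1, Pcx, Acaca, Acacb, E2f5 and Gm41999. The figures show further list members. Of the listed symbols Pc, Tf and Epb42 were found as Pcx, Trf and Epb4.2, and Ahsp was not matched. Alternatives changed the pseudocount, scaling, filter, trend and libraries.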

Additional observations from a re-analysis of the deposited data

How the results depend on the processing

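All 6 carbonic anhydrases were higher in gelADSC under each alternative in which they entered the fit. The number called higher was 4 with either pseudocount, either scaling, no filter or no trend, while 0 were called lower in all of these. Over all tested genes the same fits called 704 to 952 higher and 932 to 2032 lower, or 525 and 730 of 17563 with no filter. The 4 were not the same genes with no filter, where all 6 were tested. There Car1, with 0 and 1 read in the control libraries, was called and Car2 was not. Since the genes were picked on this contrast, nothing is read from these calls. Over the alternatives the log2 change ran from 5.99 to 7.19 for Car3, from 2.46 to 4.10 for Car5a, from 0.81 to 1.43 for Car8, from 0.70 to 1.58 for Car2, from 0.50 to 1.76 for Car14 and from 1.36 to 1.42 for Car1.

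Over all tested genes, those called lower numbered 730 with no filter, 999 after quantile normalization and 932 after median ratio scaling. With 1 library left out they ran from 331 (without control library 1) to 1708, and those called higher from 303 (without control library 1) to 775. The lone library of a group is then assumed to vary like the other group. Among other carbonic anhydrases 1 was called higher and 1 lower with no filter, which let them be tested. That fit called 525 higher and 730 lower of 17563 genes. Among bicarbonate genes, 1 was called higher with no filter and 0 to 5 with 1 library left out. Those called lower numbered 0 with either scaling or no filter and 0 to 1 with 1 library left out. Genes that were not called and changed sign were Alb (0.25 after median ratio scaling, 0.05 without control library 3, -0.44 to 0.36 with 1 library left out) and Ddx3y (0.21 after median ratio scaling, 0.25 after quantile normalization). The cause was not tested. No paired analysis was possible because the columns of the groups share only 1 number and do not carry the numbers of the titles. Few reads limit Car1 in control (0 and 1), Car12 (1 to 3) and Car4 (0 to 13), and Car5a in control rests on 36 and 50 reads. The read numbers of Car6 and Car10, above 0 in only 1 library each, cannot be found from the values.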
